A study of Mus musculus with 15 samples.

Results

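The unfolded protein response is the programme by which a cell adjusts the protein folding machinery of its endoplasmic reticulum (ER). In mouse liver, 36 of its genes were followed over 3 groups of male CD1 mice. They are 11 luminal chaperones and co-chaperones, 7 disulfide isomerases and oxidases, 8 genes of ER-associated degradation (ERAD), 3 sensors and factors of the IRE1 and ATF6 arms, 5 genes of the PERK-ATF4 arm and 2 subunits of the Sec61 translocon. A gene entered when its symbol stood on a probe of the array that was not a control spot. All 36 were found, on 45 probes, among the 22032 gene symbols tested.

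Group C received saline at day 15 of life and an empty plasmid later on. Group T received 25 µg of diethylnitrosamine (DEN) per g of body weight at day 15, a liver carcinogen that hepatocytes activate, and the same empty plasmid. Group G received DEN as group T did, and its plasmid carried HA-tagged Gas1 under the CAG promoter (pcDNA3/CAG-HAGas1). Gas1 (growth-arrest specific 1) is a membrane protein whose overexpression arrests the cell cycle. All groups were given 50 µg of plasmid by hydrodynamic gene delivery, a rapid tail vein injection, each week from week 28 to week 34. Livers were taken at week 35 by the study's methods, whereas the labels give an age of 10 weeks for all samples. The plasmid reached cells near vessels, so a sample of liver tissue mixes transfected and untransfected cells. The study reported many liver tumours in all mice given DEN, with fewer large ones in group G than in T. How much tumour tissue each RNA sample held is not given in the sources used here, and its part in the differences was not tested. There were 15 single-colour Agilent arrays. Arrays C3 and C4 carried the same RNA code, as did T4 and T5, and each pair was closer than any other pair of its group, so each was averaged as 1 mouse. This left 3 mice in C, 4 in T and 6 in G, and p-values measure the spread between these mice.

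Levels are log2 intensities after background correction and quantile normalization. The number of spots well above background ran from 15707 to 29765 per array and overlapped between the groups, no spot was saturated, and the number of arrays limits the precision. All 7 measured hepatocyte markers were well above background on every array. The Gas1 probe read 6.31 to 6.67 in C, 6.41 to 6.61 in T and 6.49 to 6.79 in G, and its level did not tell G from T (log2 difference 0.08, SE 0.08, adjusted p = 0.765 by limma). Whether the plasmid's mRNA holds the region of the probe is not given in the sources used here, so this does not check the labels. In bulk liver, fewer cells of a type and less RNA per cell cannot be told apart.

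The ER folds and oxidises proteins bound for secretion, which the liver makes in large amounts. When unfolded proteins accumulate, 3 membrane sensors respond. IRE1 (Ern1) splices the Xbp1 mRNA, ATF6 (Atf6) is cut in the Golgi to a transcription factor, and PERK (Eif2ak3) phosphorylates eIF2 alpha, which slows translation and favours that of ATF4. ATF6 and XBP1 raise chaperone and ERAD genes, while ATF4 and CHOP (Ddit3) raise amino acid and stress genes such as Trib3. The array reads mRNA levels, not splicing, cleavage or phosphorylation.

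Chaperone genes carry the ER stress element (ERSE), in which NF-Y binds CCAAT and ATF6 or XBP1 binds CCACG. The RefSeq promoter table (GRCm38.p6) held a window for 31 of the 36 members, from 250 bases before to 50 after the transcription start. Hyou1, Manf, Derl1, Atf6 and Sec61a1 had no entry, and Derl2 had 2 windows. The sites below are shown because they belong to the members that the comparisons turn on. Each is written on the strand of its gene, with the fixed letters of the motif in capitals and 5 flanking bases on each side.

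Hspa5, ERSE: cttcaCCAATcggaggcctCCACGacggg (chr2:34772020-34772048, plus strand, 65 to 47 bases before the start)
Hsp90b1, ERSE: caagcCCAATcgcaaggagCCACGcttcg (chr10:86705633-86705661, minus strand, 212 to 194 bases before the start)
Hsp90b1, ERSE read on the opposite strand: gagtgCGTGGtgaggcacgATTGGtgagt (chr10:86705528-86705556, minus strand, 107 to 89 bases before the start)
Calr, ERSE read on the opposite strand: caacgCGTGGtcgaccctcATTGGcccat (chr8:84847070-84847098, minus strand, 162 to 144 bases before the start)
Creld2, ERSE read on the opposite strand: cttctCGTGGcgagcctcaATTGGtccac (chr15:88819515-88819543, plus strand, 126 to 108 bases before the start)
Derl3, ERSE read on the opposite strand: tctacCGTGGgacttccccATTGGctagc (chr10:75893237-75893265, plus strand, 156 to 138 bases before the start)
Dnajb11, ERSE-II: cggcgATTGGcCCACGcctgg (chr16:22857847-22857867, plus strand, 8 to 18 bases into the transcript)
Herpud1, ERSE-II: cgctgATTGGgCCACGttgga (chr8:94386372-94386392, plus strand, 52 to 42 bases before the start)
Herpud1, ATF4 composite read on the opposite strand: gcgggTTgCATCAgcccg (chr8:94386312-94386329, plus strand, 112 to 105 bases before the start)
Trib3, ATF4 composite read on the opposite strand: caggtTTaCATCAgccgg (chr2:152344034-152344051, minus strand, 15 to 22 bases into the transcript)

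Both strands of all 32851 promoter windows of the table were searched. The ERSE (CCAAT, 9 bases of any kind and CCACG) was in 39 windows, 0.119% of all, and in 10 of the 31 members with a window, 32.3%. Besides the members shown it was in Canx, Dnajc3, Pdia6, Ero1lb and Syvn1. ERSE-II (ATTGG, 1 base of any kind and CCACG), which is built from the same CCACG and CCAAT letters, was in 12 windows, 0.0365% of all, and in Dnajb11 and Herpud1. The core of the XBP1-bound unfolded protein response element (TGACGTGG), whose end is the complement of CCACG, was in 0.676% of windows and in 0 members. The ATF4 composite site (TGATGNAA) was in 3.97% of windows and in Herpud1 and Trib3. By branch, 7 of 9 chaperones with a window held an ERSE or ERSE-II, against 2 of 7 isomerases, 3 of 7 ERAD genes and 0 of 5 PERK-ATF4 genes. The members were picked as genes of the unfolded protein response, whose chaperones carry the ERSE, so their higher share follows from that choice. It is not a result of these data. Shares of all count windows, while those of the members count genes. A match of letters is a description of the window and not a measured binding site.

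**Figure D1:**
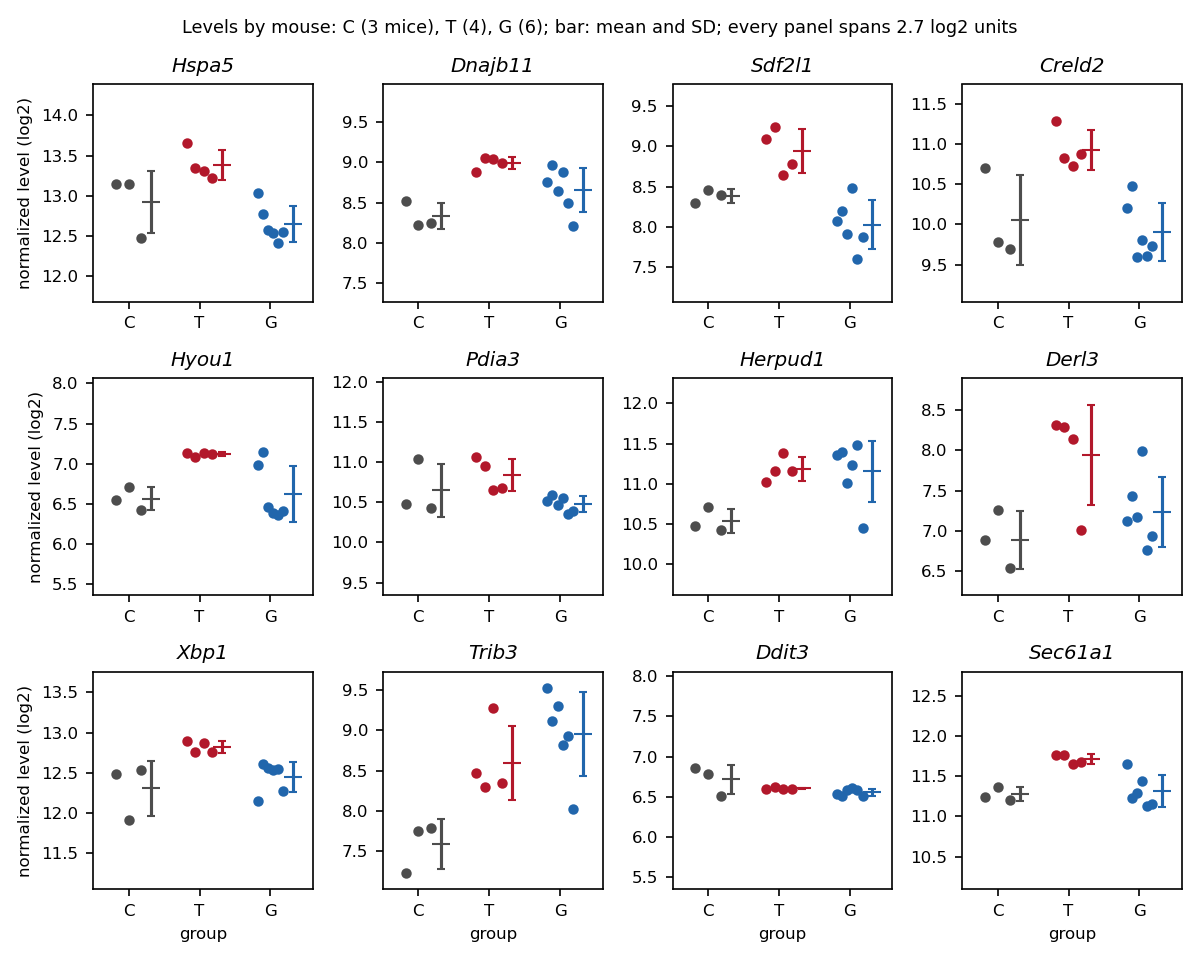
Normalized log2 level of 12 members in each mouse of groups C, T and G, 1 point per mouse, with the group mean and SD beside the points; every panel spans the same range of log2 units. The T mice of Hspa5, Dnajb11, Sdf2l1, Creld2, Hyou1, Xbp1 and Sec61a1 lie above all C mice, and for Hspa5, Sdf2l1, Creld2 and Xbp1 also above all G mice, while Trib3 is above the C mice in both T and G.

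The comparison of T with C asked how the livers of mice given DEN differed from those of mice given saline. Dnajb11, a co-chaperone of the luminal Hsp70, rose in T. It was the only member called at an adjusted p under 0.05, where 2.37% of all genes were called, 259 higher (1.18%) and 264 lower (1.2%), or 2861 higher and 15 lower with median scaling. At an unadjusted p under 0.05, 13 members were higher and 1 was lower, against 10.6% and 9.61% of all genes. For 11 members every T mouse was above every C mouse, a pattern shown by 10.3% of all genes, and for Derl2 every T mouse was below, as for 8.72% of all genes. Of the 36 differences 29 were above 0 and 7 below, against 51.8% and 48.2% of all genes, and all 36 were above 0 with median scaling. The median difference was 0.20, against 0.01 over all genes tested. Shares of all genes, here and below, cover all 22032 symbols, of which 8493 were detected on every array, so they include many dim genes. A filter kept the probes well above background on every array of at least 1 group. With it 35 members remained and 2 were called, and 703 genes were called in place of 523.

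The luminal chaperones and co-chaperones held the only call, and all 11 differences of T minus C were above 0, with a median of 0.45. For 6 of the 11 the T and C mice did not overlap. Dnajb11 read 8.51, 8.22 and 8.25 in the C mice and 8.89, 9.05, 9.04 and 8.99 in the T mice. The T mice lay close together and above all C mice. The difference was 0.66 (SE 0.15, 95% interval 0.34 to 0.99, 1.58-fold, adjusted p = 0.0407 by limma). The call was lost on leaving out C1, C2, C3, T2, T3, T4, G1 or G3 (differences of 0.61 to 0.76, adjusted p = 0.0505 to 0.108), and G mice enter it through the shared estimate of spread.

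Creld2, a secreted and luminal protein with isomerase activity, read 10.70, 9.78 and 9.69 in the C mice and 11.28, 10.83, 10.72 and 10.87 in the T mice. C1 stood well above the other C mice and just below the lowest T mouse. The difference was 0.87 (SE 0.26, adjusted p = 0.0931 by limma). Hyou1, a large ER chaperone of the Hsp110 family, read 6.55, 6.71 and 6.43 in the C mice and 7.14, 7.08, 7.13 and 7.12 in the T mice. Its T values were the tightest of the branch and all above C, although the probe was well above background on 2 of the 4 C arrays only. The difference was 0.55 (SE 0.18, adjusted p = 0.109 by limma).

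Hspa5 (BiP), the luminal Hsp70 that also holds the sensors inactive, read 13.14, 13.14 and 12.48 in the C mice and 13.65, 13.35, 13.30 and 13.23 in the T mice. The ranges did not overlap, but C1 and C2 lay just below the lowest T mouse. The difference was 0.46 (SE 0.18, adjusted p = 0.17 by limma), and 0.24 without C3. Hsp90b1, the luminal Hsp90, also had all T mice above C (0.40, SE 0.17, adjusted p = 0.224 by limma). So did Sdf2l1, a cofactor that keeps BiP clients soluble (0.56, SE 0.18, adjusted p = 0.115 by limma). For Manf, Calr, Canx, Dnajb9 and Dnajc3 the T and C mice overlapped, with differences of 0.09 to 0.45. Averaged over the 10 chaperones measured in every mouse, the distance from the C mean ran from -0.23 to 0.16 in C and from 0.32 to 0.55 in T. All T mice were above all C mice in this mean, which is given as a description with no test. Without C3, which gave the lowest mean, the median difference of the branch was 0.24 in place of 0.45.

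**Figure D2:**
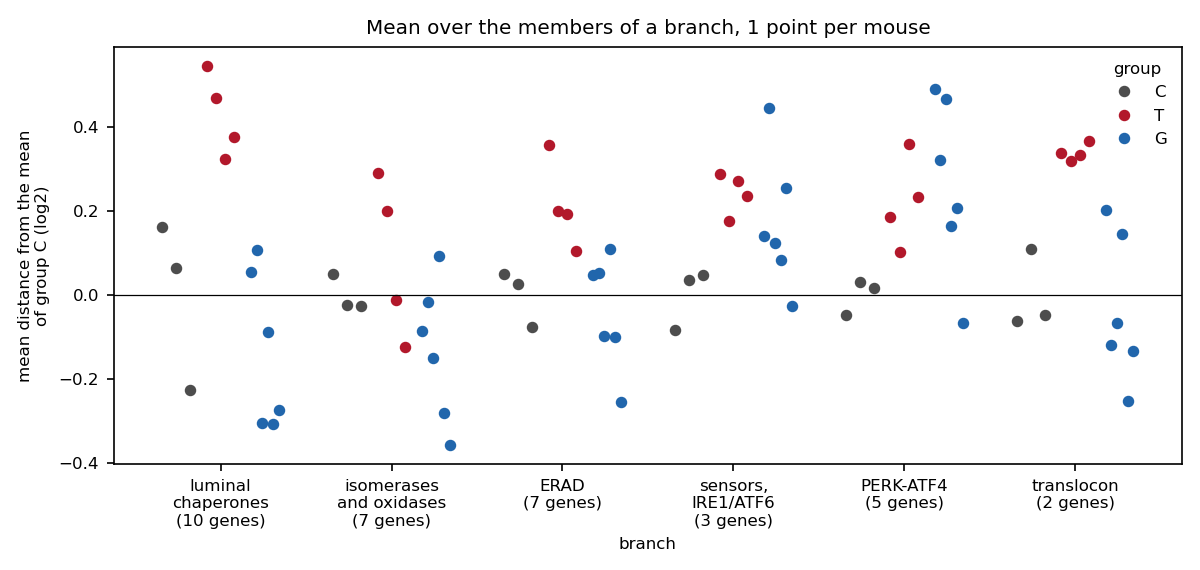
Mean distance from the mean of group C in log2 units, averaged over the members of each branch that were measured in every mouse, with 1 point per mouse for C, T and G. The 4 T mice sit between 0.32 and 0.55 for the luminal chaperones, above every C and G mouse, while for the PERK-ATF4 branch the T mice (0.10 to 0.36) lie inside the range of the G mice (-0.07 to 0.49).

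The disulfide isomerases and oxidases, which form and shuffle disulfide bonds, had 6 of 7 differences above 0 and none at an unadjusted p under 0.05, with a median of 0.14. P4hb, protein disulfide isomerase itself, read 11.78, 11.66 and 11.62 in the C mice and 11.67, 11.66, 11.24 and 10.92 in the T mice. Its T values spread downwards from the C range. The difference was -0.32 (SE 0.19, adjusted p = 0.382 by limma), and 0.67 with median scaling. Pdia3, the isomerase that works with calnexin and calreticulin, read 10.48, 11.03 and 10.43 in the C mice and 11.07, 10.95, 10.66 and 10.68 in the T mice, and C2 fell inside the T range (0.19, SE 0.14, adjusted p = 0.487 by limma, 0.38 without C2 and 0.08 without C3). Ero1l, the oxidase that recharges the isomerases, was well above background on 2 of 4 C arrays and on 0 T and 0 G arrays, with levels of 5.99 to 6.19 in C, 6.07 to 6.24 in T and 6.05 to 6.21 in G, so no fold is given. Its sign still enters the counts of differences above and below 0, and its value the medians. Pdia4, Pdia5, Pdia6 and Ero1lb differed by 0.09 to 0.23.

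Among the ERAD genes 5 of 8 differences were above 0, with a median of 0.11 and no call. Herpud1, a scaffold of the Hrd1 complex, read 10.47, 10.71 and 10.43 in the C mice and 11.03, 11.16, 11.38 and 11.16 in the T mice. All T mice were clear of the C mice. The difference was 0.65 (SE 0.20, adjusted p = 0.1 by limma), and it was called without G6 (adjusted p = 0.018). Derl3, a derlin of secretory cells, read 6.88, 7.25 and 6.54 in the C mice and 8.32, 8.29, 8.15 and 7.01 in the T mice. T1, T2 and T3 were above C and T4 was inside the C range (1.05, SE 0.33, adjusted p = 0.106 by limma). It was the largest difference of the 36, and stood at 0.67 within slide 1, which holds T2 and T4 only of the T mice.

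Derl2, another derlin of the retrotranslocation complex, read 10.76, 10.84 and 10.70 in the C mice and 10.66, 10.19, 10.49 and 10.67 in the T mice, so every T mouse was lower. The difference was -0.27 (SE 0.11, adjusted p = 0.183 by limma), and 0.67 with median scaling. Its 3 probes disagreed, with differences of 0.00, -0.27 and -0.52, the last at an adjusted p of 0.0379 in a limma fit of single probes. Derl1, Sel1l, Syvn1, Edem1 and Edem2 differed by -0.13 to 0.18 and overlapped between T and C. Edem2 had a value in 2 T mice only, since its spots were set aside by outlier flags on the arrays of the others.

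Of the sensors, Xbp1 mRNA read 12.48, 11.91 and 12.53 in the C mice and 12.89, 12.76, 12.87 and 12.76 in the T mice. T mice were all above C, and C2 stood apart at the low end. The difference was 0.51 (SE 0.14, adjusted p = 0.0774 by limma), and 0.31 without C2. Atf6 read 6.39, 6.77 and 6.74 in the C mice and 6.93, 6.72, 6.89 and 6.83 in the T mice, on a probe well above background on 2 of 4 C arrays (0.21, SE 0.11, adjusted p = 0.338 by limma, and 0.09 without C1). Ern1 read 8.72, 9.27 and 8.71 in the C mice and 8.89, 8.89, 8.91 and 8.96 in the T mice, which sat inside the C range (0.01, SE 0.16, adjusted p = 0.984 by limma).

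In the PERK-ATF4 branch 2 of 5 differences were above 0 and the median was -0.03, while all 5 were above 0 with median scaling. The branch mean of every T mouse (0.10 to 0.36) was above that of every C mouse (-0.05 to 0.03), a mean that Trib3 enters with by far the largest difference. Trib3, a pseudokinase gene that ATF4 and CHOP induce, read 7.23, 7.75 and 7.79 in the C mice and 8.47, 8.30, 9.28 and 8.34 in the T mice. Every T mouse was above C, with T3 well above the others (1.01, SE 0.32, adjusted p = 0.106 by limma). The difference was 0.61 within slide 1, and it was called without G6 (adjusted p = 0.0457 by limma). Eif2ak3 read 6.99, 7.24 and 6.85 in the C mice and 7.12, 7.38, 7.18 and 7.49 in the T mice, with C2 inside the T range (0.26, SE 0.11, adjusted p = 0.195 by limma). Ddit3 read 6.86, 6.78 and 6.51 in the C mice and 6.60, 6.62, 6.60 and 6.60 in the T mice, all within a C range that only C3 brought so low (-0.11, SE 0.07, adjusted p = 0.412 by limma, and 0.17 with median scaling). Without C3 all T mice were below the C mice (-0.21, adjusted p = 0.0521 by limma). Atf4 mRNA differed by -0.04 and Ppp1r15a, the phosphatase subunit that reverses eIF2 alpha phosphorylation, by -0.03.

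Both translocon subunits, which form the channel for nascent chains, had all T mice above C. Sec61a1 read 11.25, 11.37 and 11.21 in the C mice and 11.76, 11.77, 11.65 and 11.67 in the T mice. The gap between the groups was larger than the spread inside either (0.44, SE 0.11, adjusted p = 0.0518 by limma), and the difference was called without G6 (adjusted p = 0.0445). Sec61b differed by 0.24 (SE 0.10, adjusted p = 0.209 by limma), and its 3 probes gave 0.35, 0.33 and 0.04.

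**Figure D3:**
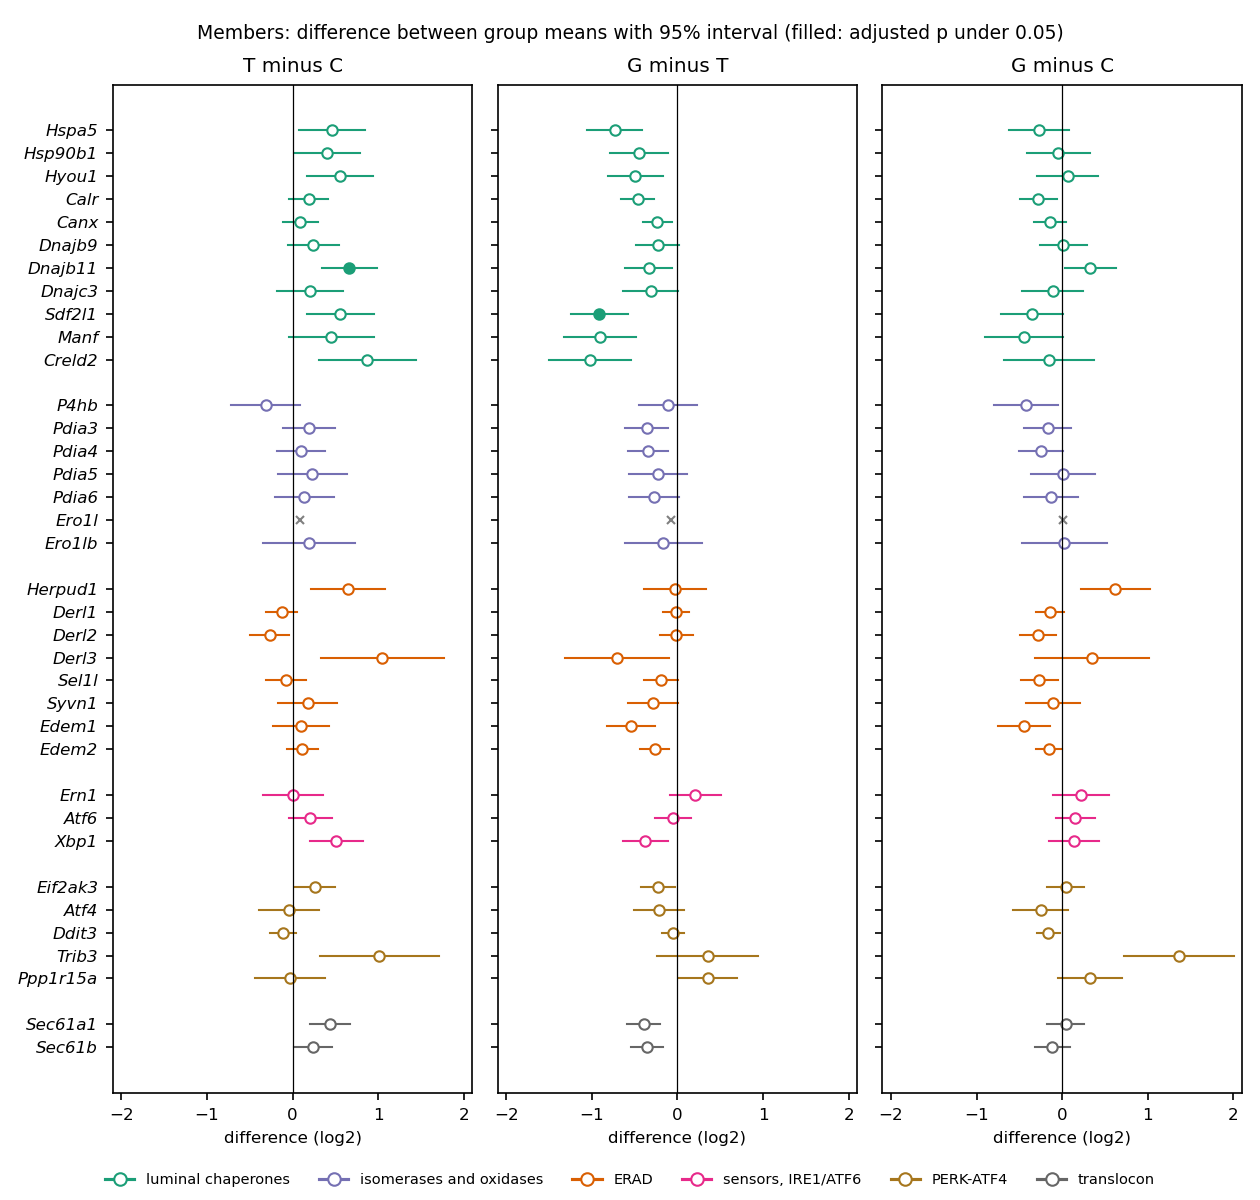
Difference between group means in log2 units with its 95% interval for the 36 members, grouped by branch, for T minus C, G minus T and G minus C; filled points have an adjusted p under 0.05 and a cross marks Ero1l, for which no fold is given. Dnajb11 in T minus C (0.66) and Sdf2l1 in G minus T (-0.91) are the filled points, and the 11 luminal chaperones lie right of 0 in T minus C and left of 0 in G minus T.

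The comparison of G with T asked what the Gas1 plasmid added to DEN. It shares the T mice with the comparison above, so a T mouse with high levels moves both, in opposite directions. Sdf2l1 fell in G and was the only member called, where 0.132% of all genes were called, 7 higher (0.0318%) and 22 lower (0.0999%). At an unadjusted p under 0.05, 18 members were lower and 1 was higher, against 6.62% and 4.18% of all genes. For 10 members every G mouse was below every T mouse, as for 2% of all genes, and for 0 members every G mouse was above, as for 1.1%. Of the differences 33 were below 0 and 3 above, against 53.8% and 46.2% of all genes, with a median of -0.27 against -0.01 over all genes tested.

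All 11 luminal chaperones had differences of G minus T below 0, with a median of -0.46, and for 5 of them the groups did not overlap. Sdf2l1 read 9.09, 9.24, 8.65 and 8.79 in the T mice and 7.60, 7.99 and 8.49 in G at the lowest, the median and the highest. The highest G mouse was below the lowest T mouse. The difference was -0.91 (SE 0.15, 95% interval -1.25 to -0.58, 0.531 of the T level, adjusted p = 0.0479 by limma). In the C mice the gene read 8.29, 8.46 and 8.39, inside the upper part of the G range. The call stood on leaving out G4 and was lost on leaving out any other of the 13 mice in turn (C1 to C3, T1 to T4, G1 to G3, G5 and G6), with differences of -1.01 to -0.82 and adjusted p of 0.0526 to 0.144.

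Creld2 read 9.60, 9.76 and 10.48 in G at the lowest, the median and the highest, all below the T mice (-1.02, SE 0.22, adjusted p = 0.102 by limma). Manf, a secreted neurotrophic factor that binds BiP, ran from 8.66 to 9.47 in G and from 9.80 to 10.11 in T (-0.90, SE 0.19, adjusted p = 0.0962 by limma). Hspa5 read 12.42, 12.56 and 13.04 in G, again below every T mouse (-0.73, SE 0.15, adjusted p = 0.0867 by limma). Calr, the lectin chaperone of glycoproteins, ran from 11.35 to 11.80 in G and from 11.84 to 12.19 in T (-0.46, SE 0.09, adjusted p = 0.0787 by limma). These 4 are the other chaperones whose groups did not overlap.

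Hyou1 split the G mice. It read 6.99 in G1 and 7.15 in G2, at the level of the T mice, and 6.37 to 6.46 in the other 4, among or just below the C mice (-0.49, SE 0.15, adjusted p = 0.237 by limma). Averaged over its 2 probes, Dnajb11 ran from 8.21 to 8.97 in G with a median of 8.70, between the groups C and T (-0.33, SE 0.13, adjusted p = 0.36 by limma). The 2 probes disagreed here: the brighter one (mm9 chr16:22872067-22872126) gave -0.69 and the dimmer one (mm9 chr16:22879612-22879671) gave 0.02. For T minus C they gave 0.47 and 0.86, and for G minus C -0.22 and 0.87. Neither probe alone placed the G mean between those of C and T. Hsp90b1, without a value in G4, Canx, Dnajb9 and Dnajc3 differed by -0.45 to -0.23 and overlapped between the groups. The mean distance of the chaperones from the C mean ran from -0.31 to 0.11 in G, below all T mice.

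All 7 isomerases and oxidases and all 8 ERAD genes had differences below 0 as well, with medians of -0.22 and -0.23 and no call. The 7 include Ero1l, which was not well above background in T or G. Pdia3 read 10.35, 10.49 and 10.59 in G at the lowest, the median and the highest, below every T mouse (-0.36, SE 0.12, adjusted p = 0.27 by limma). P4hb, which was not higher in T, differed by -0.11 (adjusted p = 0.848 by limma). Edem1, a lectin-like factor that removes misfolded glycoproteins, ran from 8.78 to 9.28 in G and from 9.32 to 9.82 in T (-0.55, SE 0.13, adjusted p = 0.131 by limma), and Edem2 was lower without overlap too in the 2 T and 4 G mice with a value (-0.27, SE 0.08, adjusted p = 0.238 by limma). With the flagged spots kept its difference was -0.17, and 9 members in place of 10 had all G mice below all T mice. Derl3 read 6.76, 7.14 and 7.99 in G, a range that held T4 and lay below T1, T2 and T3 (-0.71, SE 0.28, adjusted p = 0.391 by limma, and -0.23 within slide 1). Herpud1 stood apart from the other ERAD genes: it read 10.45, 11.29 and 11.49 in G, where 5 of 6 mice lay within or close to the T range and G6 was at the C level (-0.03, SE 0.17, adjusted p = 0.974 by limma). Derl2 differed by -0.01.

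Xbp1 read 12.15, 12.54 and 12.61 in G, below every T mouse (-0.37, SE 0.12, adjusted p = 0.271 by limma). Ern1 read 8.84, 9.09 and 9.52 in G, with a difference of 0.21, and Atf6 one of -0.06. In the PERK-ATF4 branch the 5 differences ran from -0.22 for Eif2ak3 to 0.36 for Ppp1r15a, whose G mice ran from 8.24 to 9.09 and its T mice from 8.15 to 8.51 (SE 0.16, adjusted p = 0.445 by limma). Trib3 read 8.02, 9.02 and 9.53 in G, overlapping T (0.35, SE 0.27, adjusted p = 0.689 by limma), and Ddit3 6.51, 6.56 and 6.61 (-0.05). Sec61a1 ran from 11.13 to 11.65 in G, where G1 alone touched the T range (-0.40, SE 0.09, adjusted p = 0.119 by limma). Sec61b was below T in every G mouse (-0.36, SE 0.09, adjusted p = 0.131 by limma).

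**Figure D4:**
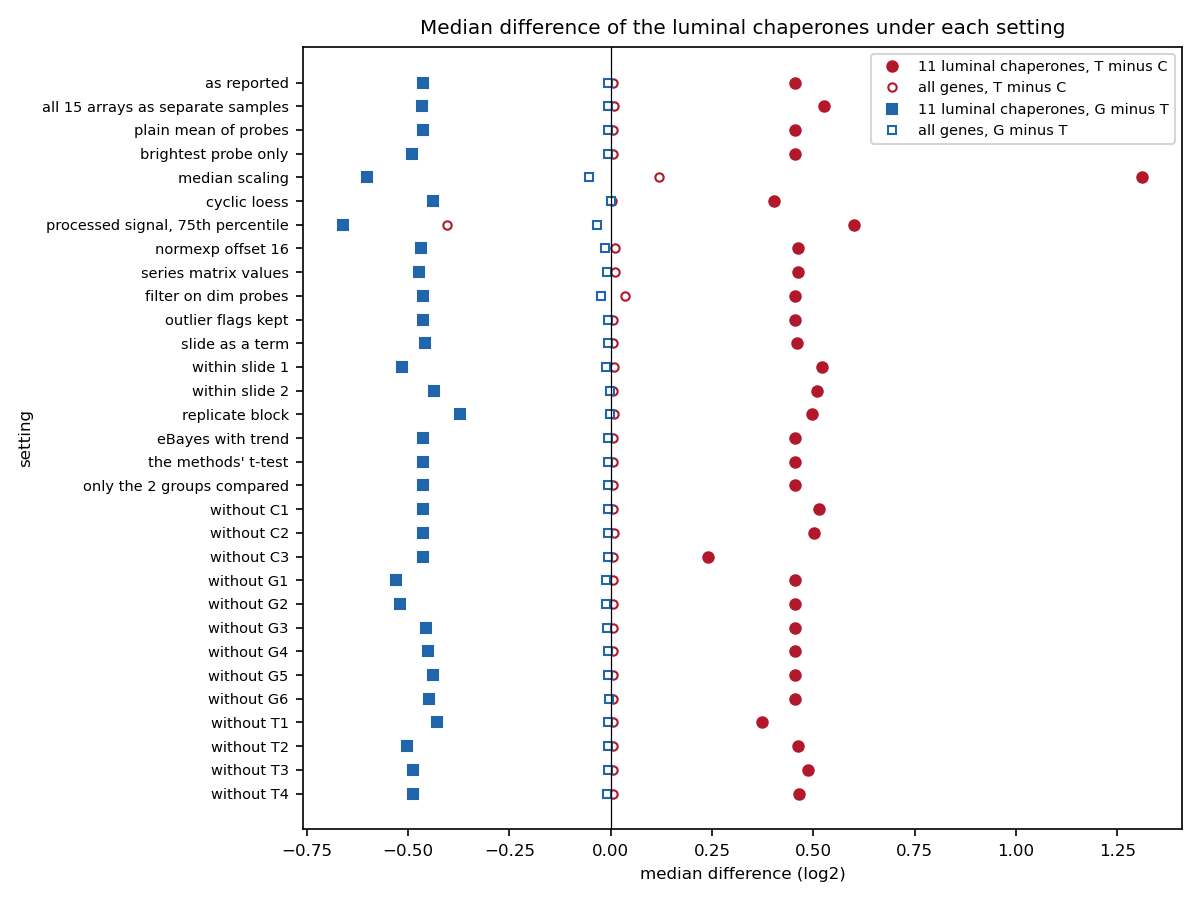
Median log2 difference of the 11 luminal chaperones (filled) and of all genes (open) as reported and under each of the 30 alternative settings, with circles for T minus C and squares for G minus T. The chaperone median of T minus C lies between 0.24 (without C3) and 1.31 (median scaling), and that of G minus T between -0.66 and -0.37.

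The comparison of G with C asked how far the livers given both DEN and the Gas1 plasmid stood from those given neither. It shares the C mice with the first comparison and the G mice with the second. No member was called by limma, where 0.427% of all genes were, 0.163% higher and 0.263% lower. At an unadjusted p under 0.05, 3 members were higher and 7 were lower, against 6.1% and 7.16% of all genes. Differences were above 0 for 15 members and below 0 for 21, against 48.5% and 51.5% of all genes, with a median of -0.11 against 0.00 over all genes, and with median scaling 35 were above 0. The chaperones had 3 differences above 0 and 8 below (median -0.14), and 11 above 0 with median scaling.

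Trib3 was the member whose G mice all lay above the C mice, as for 2.83% of all genes (1.36, SE 0.30, adjusted p = 0.0695 by limma). G6, the lowest at 8.02, was still above C3 at 7.79. Without G6 the difference was 1.55 and was called (adjusted p = 0.0204 by limma). Herpud1 had 5 of 6 G mice above all C mice and G6 between them (0.62, SE 0.19, adjusted p = 0.171 by limma, 0.76 with an adjusted p = 0.0204 without G6, and 0.34 within slide 1). Edem1 and Derl2 had all G mice below all C mice, as for 3.12% of all genes, with differences of -0.45 and -0.28, which were 0.36 and 0.53 with median scaling. Ddit3 differed by -0.16, and by -0.26 without C3, where it was called (adjusted p = 0.0394 by limma).

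The chaperones were also compared within each slide and under other normalizations. All 11 differences of G minus T were below 0 under each of the 30 alternative settings, and all 11 of T minus C were above 0 under each except within slide 1, where 10 were. For part of the 30 this was fixed in advance. A change of test alone, or leaving out a mouse of the group not compared, changes no difference. Both slides held all groups, and the chaperone median of T minus C was 0.52 within slide 1 and 0.51 within slide 2, and that of G minus T -0.52 and -0.44. These slides are not independent, since the mice C3 and T4 had an array on both. The number of members called did depend on the setting, and Dnajb11 was called in 16 of the 30 for T minus C and Sdf2l1 in 11 of the 30 for G minus T.

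Set beside the promoter sites, the 12 members with an ERSE or ERSE-II all had differences above 0 in T minus C (median 0.30) and below 0 in G minus T (median -0.32). The 19 members with a window and neither element include Ero1l, which was not well above background in T or G. Of the 19, 13 were above 0 in T minus C (median 0.10) and 16 below 0 in G minus T (median -0.22). In T minus C the mice did not overlap for 5 of the 12, all higher, and for 5 of the 19, 4 of them higher. Over all genes 10.3% were higher without overlap in T minus C and 8.72% lower. In G minus T they did not overlap for 3 of the 12 and for 6 of the 19, all lower, as for 2% of all genes. Most of the 12 are luminal chaperones and few of the 19 are, so the split largely follows the branch. The part of the element was not tested. Sdf2l1, Xbp1 and Trib3 are among the members with large differences and neither element in the window, while Canx and Pdia6 hold an ERSE and differed by 0.09 and 0.14 in T minus C.

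**Figure D5:**
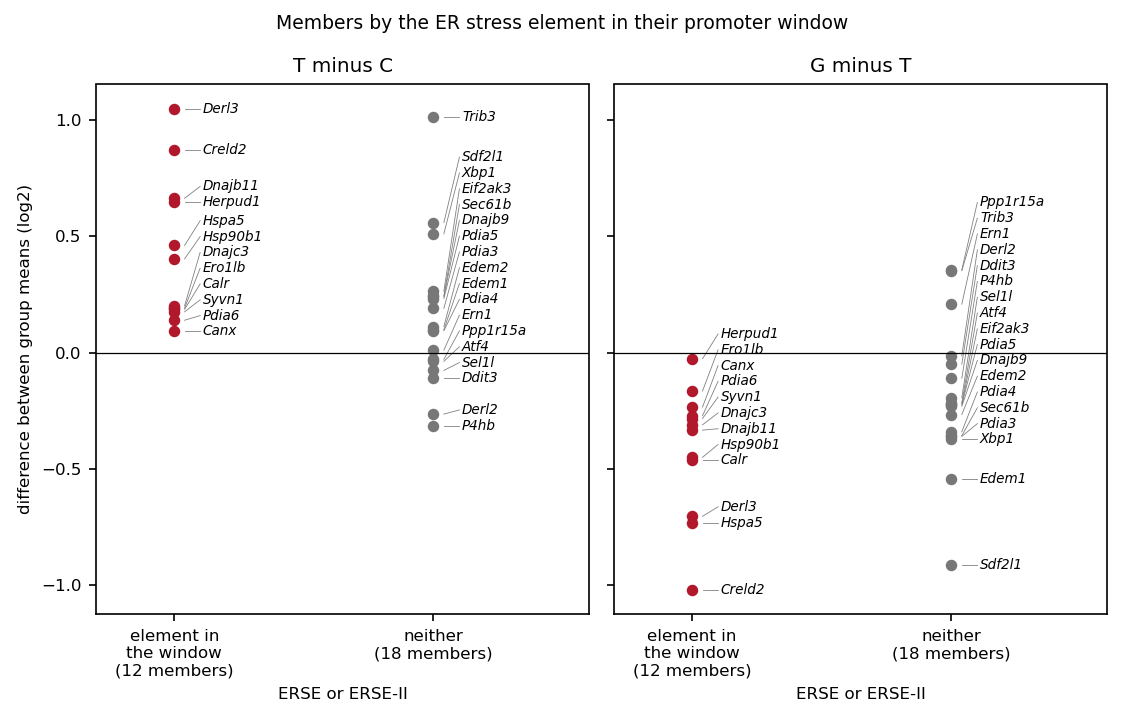
Difference between group means in log2 units for the members with a RefSeq promoter window, split by whether the window holds an ERSE or ERSE-II, for T minus C on the left and G minus T on the right, 1 point per member without Ero1l. The 12 members with an element lie above 0 in T minus C and below 0 in G minus T, and the others spread across 0 in both.

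Other genes of the ER pathway were taken from fixed lists of luminal folding, translocation and signal peptidase, N-glycosylation, ER to Golgi transport, ERAD and UFMylation, sensor processing and ATF4 targets. For T minus C, 5 of the 135 measured rose and 1 fell, against 1.18% and 1.2% of all genes, with a median of 0.07. At an unadjusted p under 0.05, 37 were higher and 11 lower, against 10.6% and 9.61% of all genes. For G minus T 0 rose and 1 fell, against 0.0318% and 0.0999% of all genes, with 104 of 135 below 0, against 53.8%, and a median of -0.10. There 4 were higher and 44 lower at an unadjusted p under 0.05, against 4.18% and 6.62% of all genes. For 13 every G mouse was below every T mouse, as for 2% of all genes. For G minus C 0 were called by limma, with 11 higher and 16 lower at an unadjusted p under 0.05, against 6.1% and 7.16% of all genes. Qsox1, a sulfhydryl oxidase of the secretory pathway, ran from 12.56 to 12.99 in C, from 13.31 to 14.06 in T and from 12.86 to 13.26 in G (T minus C 0.84, SE 0.16, adjusted p = 0.0238 by limma). Every T mouse was above every C and every G mouse. Txndc11, a thioredoxin-domain protein of the ER, rose by 0.44 (adjusted p = 0.0327 by limma). The call of Qsox1 was lost without C1, C2, T3 or T4 (0.70 to 0.92), and that of Txndc11 without any of C1 to C3 or T2 to T4 (0.38 to 0.50).

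Of the ATF4 targets and eIF2 kinases, 2 of 25 rose in T, against 1.18% of all genes. Phgdh, the first enzyme of serine synthesis, ran from 6.06 to 6.09 in C and from 6.47 to 7.67 in T, with 1 of 4 C arrays well above background (1.05, SE 0.21, adjusted p = 0.0296 by limma). Its difference was 3.21 with the processed signal. Eif2ak2 (PKR), which senses double-stranded RNA, rose by 0.37 (adjusted p = 0.0379 by limma). The call of Phgdh was lost without any of C1 to C3 or T2 to T4 (0.87 to 1.06), and that of Eif2ak2 without C1, C2, T2, T3 or T4 (0.32 to 0.39). Asns, asparagine synthetase, ran from 5.89 to 6.26 in C, from 7.57 to 9.62 in T and from 6.31 to 8.83 in G, and was not called (T minus C 2.48, SE 0.60, adjusted p = 0.0501 by limma). It was well above background on 1 of 4 C arrays, so its C level is only a bound on most of them. Tusc3, a subunit of the oligosaccharyltransferase, fell by 0.46 (adjusted p = 0.0487 by limma) and stood at 0.004 with median scaling. Its call was lost without C1, C2, T2, T3, T4, G1, G2, G3 or G5 (-0.46 to -0.36). Golt1b, a Golgi transport protein, was called higher in T as well (adjusted p = 0.0425 by limma), but was not well above background on any C array, and no fold is given. This call was lost without any of C1 to C3 or T2 to T4, or without G1, G2 or G5 (adjusted p = 0.0518 to 0.127 by limma).

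Translocation and signal peptidase genes held the call of G minus T. Ssr1, a subunit of the translocon-associated TRAP complex, ran from 7.94 to 8.06 in T and from 7.57 to 7.79 in G, with no overlap (-0.33, SE 0.05, adjusted p = 0.0357 by limma). The call was lost without C2, C3, T2, T3, T4, G2, G3, G5 or G6 (-0.35 to -0.31). Of the 22 genes of that list, 21 were below 0 in G minus T (median -0.23) and 14 above 0 in T minus C (median 0.10). Spcs2 (0.69, adjusted p = 0.0615) and Srp68 (0.39, adjusted p = 0.0798) led it in T minus C by limma without a call. Other ERAD genes were led by Edem3 (0.34, adjusted p = 0.0704) and Os9 (0.32, adjusted p = 0.0868), and other sensors by Creb3l2 (0.33, adjusted p = 0.327) and Ern2, which was well above background on 0 arrays and gets no fold. Edem3 was well above background on 2 of 4 C arrays. Chaperones of the cytosol and mitochondria had 8 of 19 differences above 0 in T minus C (median -0.05), against 51.8% of all genes. Trap1 stood there at -0.29 (adjusted p = 0.0734) and Hsph1 at 0.48 (adjusted p = 0.136), both by limma. In G minus T 15 of these 19 chaperones were below 0 (median -0.09), against 53.8% of all genes. For 2 of them, cytosolic Hsph1 (-0.80, adjusted p = 0.0563 by limma) and Hsp90aa1 (-0.54, adjusted p = 0.0883 by limma, over 4 T and 4 G mice), every G mouse was below every T mouse, as for 2% of all genes.

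Markers of cell types were read beside these results. The summed level of 11 of the 12 measured exocrine pancreas genes ran from 9.90 to 9.96 in C, from 9.96 to 10.56 in T and from 9.88 to 9.995 in G, with 4 genes (Cpa1, Cpb1, Pnlip and Try4) well above background on no array, no call, and 1 gene higher in T at an unadjusted p under 0.05. Amylase (Amy2a5) ran from 8.09 to 8.21 in C, from 8.18 to 9.50 in T with the top value in T2, and from 7.83 to 8.05 in G. Of 9 measured plasma and B cell genes, 8 summed to 9.07 to 9.12 in C, 9.09 to 9.72 in T and 9.20 to 9.91 in G, with Tnfrsf17 and Irf4 well above background on no array, no call, and 2 genes higher in T at an unadjusted p under 0.05. The macrophage genes summed to 10.77 to 11.26 in C, 11.02 to 11.42 in T and 11.01 to 11.57 in G. Of them Emr1, on 2 of 4 C arrays well above background, rose in T by 0.31 (adjusted p = 0.0267 by limma), and the other 6 were not called. Cd68 was well above background on 0 T arrays and gets no fold, and the rest ran from -0.06 for Clec4f to 0.83 for Marco. The hepatocyte sum ran from 19.55 to 19.66 in C, from 19.31 to 19.57 in T and from 19.33 to 19.53 in G, and Ttr (transthyretin) fell in T by 1.00 (adjusted p = 0.00425 by limma). The other 6 hepatocyte genes were not called and ran from -0.36 for Alb to 0.55 for Apoa1, whose T mice were all above C. All 7 stellate and fibroblast genes were below 0 in T minus C (median -0.30), 6 of 7 were above 0 in G minus T (median 0.45), and none was called. Dcn (decorin) had means of 12.62 in C, 11.80 in T and 12.43 in G (T minus C -0.83, adjusted p = 0.0947 by limma). Of 6 cholangiocyte genes 5 were below 0 in T minus C (median -0.17) and 5 above 0 in G minus T (median 0.15), with no call. These counts and medians include Krt7, Epcam and Cftr, which were well above background on 0 T arrays. The part of these cell types in the differences of the 36 members was not tested.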

How the data were processed

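RNA from the livers was hybridised to single-colour Agilent SurePrint mouse arrays. The authors scanned these and read them with Agilent Feature Extraction 10.7.3.1, per the file headers. The labels name TRIzol for RNA extraction and the methods a spin-column kit. The deposited scanner files hold the mean signal and median background intensity per spot, not normalized, and the authors' table holds log2 values after normexp and quantile normalization. From the intensities, normexp (offset 50) and quantile normalization were run in limma 3.58.1 (R 4.3.3). Log2 values differed from those of the authors by a median of 0.00282. Control spots (3671 of 62976) and outlier flags were set aside, spots of a probe were averaged, and probes of a gene were averaged after centring. Of 55681 probes, 29522 had a gene symbol.

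Arrays of the same RNA code were averaged where the SD of their difference over 7848 genes was under 0.7 of that of the next closest pair (ratios 0.5 and 0.615). 1 limma fit of 3 group means was made over all 22032 genes, with Benjamini-Hochberg adjustment and a threshold of 0.05. The methods' t-test was an alternative, with the scaling, background, probe rule, dim probe filter, slide, replicate block and leaving out each mouse as others. Probe positions are in mm9 and promoter windows in GRCm38.p6, and the builds were not joined. Of the members, 29 matched the promoter table by symbol and Ero1l and Ero1lb by their newer symbols.

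The members and lists were chosen with earlier results of these data known. Values per mouse were given for called members and, in each branch, for those with the 3 largest moderated t in T minus C, and others the text describes were chosen after their values were seen. Of the other lists, called genes or the 2 with the largest t were named. The statistical scripts were tested on simulated data.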

Additional observations from a re-analysis of the deposited data

Results flagged for a closer look

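Of 71 sets of values (1 member in T or G), 6 held a mouse that stood apart from the rest of its group by Dixon's criterion at the 95% level, and chance alone flags about 1 in 20. In T4, Dnajb9 read 8.11 against 7.54 to 7.62 in the other T mice, and Derl3 read 7.01 against 8.15 to 8.32. In G4, P4hb read 11.75 against 11.03 to 11.26 in the other G mice, and Pdia6 read 11.5 against 10.77 to 10.96. Ero1l in G2 read 6.21 against 6.05 to 6.10, where the probe passed the background test on 0 G arrays. Ddit3 in T2 read 6.62 against 6.60 in the other T mice, which were nearly identical.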

How the results depend on the processing

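The number of members called moved with the setting. For T minus C it was 1 as reported, 10 with all 15 arrays as separate samples, 24 with median scaling, 4 with only the 2 groups compared, 3 with slide as a term, 2 with the authors' table or the filter on dim probes, 0 with the brightest probe, cyclic loess, the processed signal, the methods' t-test or within slide 2, and 0 to 4 on leaving out 1 mouse. For G minus T it was 1 as reported, 8 with 15 arrays, 4 with the dim filter or slide as a term, 2 with the brightest probe, 0 with median scaling, the processed signal, the t-test, the 2 groups alone or within slide 2, and 0 to 2 on leaving out 1 mouse. For G minus C it was 0 as reported, 1 with 15 arrays, an offset of 16, the dim filter, slide as a term or within slide 2, and 0 to 2 on leaving out 1 mouse. Over all genes, T minus C gave 523 calls, and 1949 with 15 arrays, 2876 with median scaling, 186 with cyclic loess, 57 with the processed signal, 46 and 17 within slides 1 and 2, and 0 by the t-test after adjustment (3827 before). G minus T gave 29, and 268, 8, 30, 3, 7, 4 and 5 in the same order, 78 with the dim filter and 75 with slide as a term. Calls of G minus T were 7 higher and 22 lower, and 12 and 18 with cyclic loess. Median scaling moved the median of all genes in T minus C to 0.12 and the processed signal to -0.40. With median scaling differences above 0 went from 29 to 36 members in T minus C and from 15 to 35 in G minus C. Among the differences recomputed singly, signs turned there for T minus C of P4hb (0.67), Derl2 (0.67), Ddit3 (0.17) and Tusc3 (0.004) and for G minus C of Calr (0.57), Derl2 (0.53), P4hb (0.42), Edem1 (0.36), Sel1l (0.30), Edem2 (0.25) and Ddit3 (0.13), with the brightest probe for Dnajb11 in G minus C (-0.22), and within slide 1 for Ddit3 (0.005) and Ern1 (-0.09) in T minus C. On leaving out 1 mouse Ern1 ran from -0.084 to 0.194, below 0 without C1, C3 or T4. The cause was not tested. Replicate numbers did not pair the mice (same-number correlations -0.31 to 0.25, 4 of 10 over 0.1, and 4 of 13 mice closest to their own number). With the replicate block, members called were 1, 0 and 1 for T minus C, G minus T and G minus C, where Sdf2l1 stood at -0.77 (adjusted p = 0.141) and Trib3 at 1.71 (adjusted p = 0.0394) by limma. Signal over background limits Ero1l, Hyou1, Atf6, Asns, Phgdh, Golt1b and Ern2. Of all single-gene values recomputed, 1435 kept their direction and side of the threshold, 63 passed it, 134 no longer did and 17 turned, as given above.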
